A study of Caenorhabditis elegans with 10 samples.

Results

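The fasting response of adult Caenorhabditis elegans carrying a mutation in mek-1 was read on 6 of the 10 arrays of a study of fed and fasted worms of 2 mutant strains. The arrays were chosen by their labels, 3 titled mek-1 fasted and 3 titled mek-1 fed, and each fasted array was set against the fed array of the same number. The fasted worms were moved on adult day 2 to plates without the Escherichia coli food OP50-1 and the fed worms to plates with it. After another 2 days (adult day 4) total RNA was taken with Trizol, copied from the 3' end by in vitro transcription and labelled with biotin. Both groups carry the mek-1 mutation, whose allele the labels do not name. Wild-type worms were not analysed here, so no value below says what the mutation itself does. The other 4 arrays hold mlk-1 mutants, 2 fasted and 2 fed, and serve only for the comparison at the end. Whether the replicates were separate cultures is not stated, so the p-values reflect only how these samples spread, which may be technical.

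The worm intestine is at once gut, liver and main fat store: it takes up the products of digested bacteria, makes yolk, secretes digestive and antimicrobial proteins, and releases stored fat when food runs out. In fasted worms the nuclear hormone receptor NHR-49 is known to raise genes of mitochondrial fatty acid oxidation, and the transcription factor HLH-30 to raise lysosomal lipase genes. MEK-1 is a MAP kinase kinase. It acts below the kinase kinase kinase MLK-1 and above the JNK-like kinase KGB-1, in a cascade known for stress resistance, axon regeneration and responses to pathogens.

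Values are linear intensities, 1 per probe set and array, and a change is the mean fasted minus fed log2 intensity over the 3 pairs with the standard error of limma's moderated fit. The median of a gene list is the median of its log2 changes. Array medians ran from 70.5 to 73.3 in fasted worms and from 71.8 to 74.5 in fed worms, and the lowest value on these arrays rounds to 16. Their number, 3 a group, limits the precision of each value. Of the variance, 54.4% lay on the first principal component, which set all fasted arrays (20.9 to 40.1) apart from all fed arrays (-43.5 to -19.6). On the second, with 26.5%, pair 3 lay apart at -27.3 (fasted) and -32.1 (fed), against 1.39 to 26.1 for the other 4 arrays, and results that lean on pair 3 are given without it. Deviations from the group mean correlated across probe sets at 0.407, 0.639 and 0.555 for same-numbered arrays, and at -0.0217 or below for different numbers. Such deviations cancel out within each group, so positive correlations of same-numbered arrays force negative ones among the others. Of the 3'/5' ratios of 5 control transcripts, a sign of RNA quality, those of actin, gapdh and gly14 were on average higher in fasted worms (1.66, 0.960 and 0.658 on the log2 scale, against 1.31, 0.835 and 0.414 in fed worms). Those of catalase and ubiquitin were lower (1.99 and 0.702, against 2.102 and 0.872 in fed worms), and the part of RNA quality in the results was not tested.

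The mek-1 probe set, a check of the labels, gave 67.6, 66.5 and 72.5 in fasted worms, against 128, 139 and 119.2 in fed worms. It gave 1350 and 1387 in fasted mlk-1 worms, and 1138 and 1137 in fed mlk-1 worms, so every mek-1 array lay far below every mlk-1 array. Which part of the transcript the allele removes is not stated, so this level shows only that the labels and the arrays go together. Within the mek-1 strain the remaining signal fell with fasting by 0.90 ± 0.10 on the log2 scale (limma, adjusted p = 0.00342).

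In the paired fit of log2 values fasting lowered more genes than it raised, though on other scales the excess turned, and the decreases were the larger ones. Of 17118 genes read on 1 probe set each, 765 rose (4.47%) and 1119 fell (6.54%) at an adjusted p under 0.05 in limma's paired fit over all 22548 probe sets, in which 10.7% passed. The median change of the genes that rose was 0.50 and that of the genes that fell was -0.90, beside a median of 0.06 over all genes. At least 2-fold increases were found for 71 genes (0.415%) and decreases of that size for 500 (2.92%). Changes of 8-fold or more were found for 2 genes that rose and 35 that fell. All fasted arrays lay below all fed arrays for 910 of the genes that fell, and for 9.34% of all genes. Beside a count of 0, the number at an unadjusted p under 0.05 in limma stands in brackets. The gene lists below were written with earlier results of these data known. Their counts are to be read beside the shares of all genes, 4.47% that rose and 6.54% that fell. The number of increases depended strongly on how the pairs entered: 1004 probe sets rose (4.45%) and 1400 fell (6.21%) in the paired fit, 148 and 578 without the pairing, and 322 and 905, 180 and 890, and 1168 and 1754 without pair 1, 2 or 3. The share of increases among calls was 41.8% and turned with the scale. On log2(value + 64), which compresses dim probe sets, 1497 rose and 1131 fell (56.96% increases), on log2(value + 16) 1449 and 1403 (50.8%), and with median centring 1412 and 1357 (50.99%). A trended and robust variance gave 1762 and 1461 (54.7%).

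**Figure D1:**
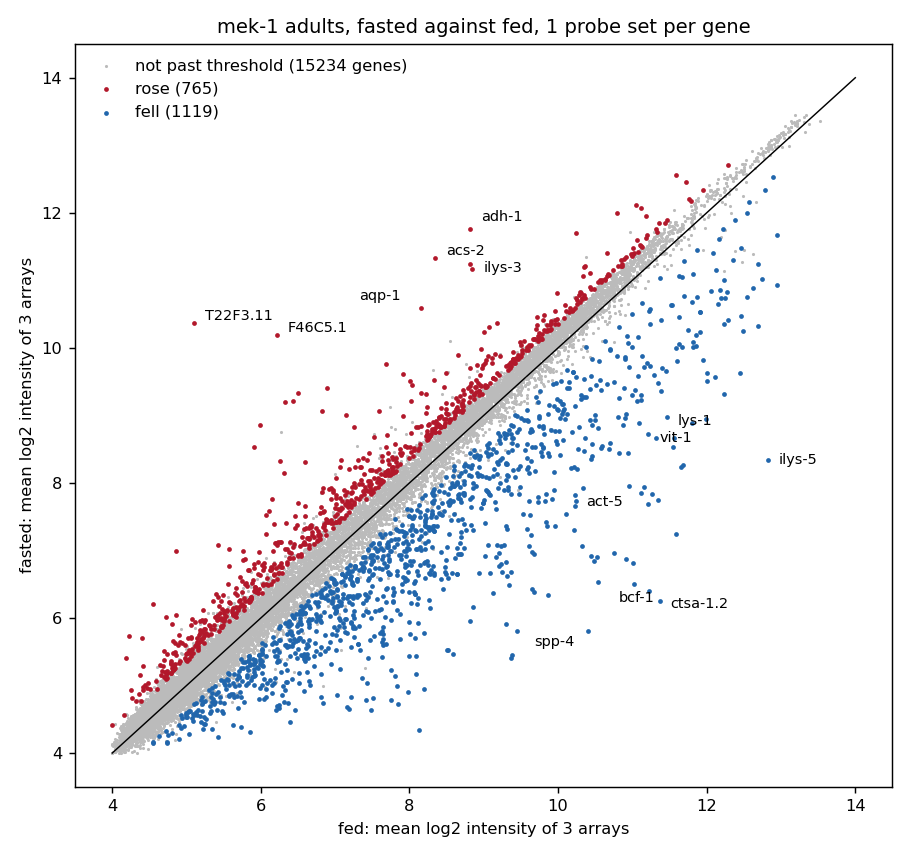
Mean log2 intensity of each of 17118 genes over the 3 fasted arrays (vertical axis) and the 3 fed arrays (horizontal axis) of the mek-1 strain; red points are the 765 genes that rose, blue points the 1119 that fell, grey points the rest, and the line marks equal levels. The blue cloud reaches much further from the line than the red one, apart from T22F3.11, F46C5.1, acs-2 and adh-1.

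The 2 genes that rose by 8-fold or more were T22F3.11 and F46C5.1. T22F3.11 gave 1383, 1248 and 1321 in fasted worms, against 35.3, 37.9 and 30.2 in fed worms, a change of 5.26 ± 0.11 log2 units (adjusted p = 1.46e-05), and a second probe set of the gene changed by 4.82 log2 units. F46C5.1 gave 1208, 953 and 1377 in fasted worms, against 93.3, 61.2 and 72.6 in fed worms. On no fed array did either gene exceed 93.3, and on no fasted array did either fall short of 953. The gene acs-2, which encodes a mitochondrial acyl-CoA synthetase that activates fatty acids for oxidation, gave 2321, 2702 and 2699.6 in fasted worms, against 306, 229.9 and 489.9 in fed worms, a change of 2.98 ± 0.20 log2 units (adjusted p = 0.000466). The alcohol dehydrogenase gene adh-1 gave 3637, 4089 and 2844 in fasted worms, against 615, 299.8 and 498 in fed worms. The gene hacd-1, for a hydroxyacyl-CoA dehydrogenase of beta-oxidation, gave 2096, 2617 and 2563 in fasted worms, against 361, 436 and 575 in fed worms. No fasted array overlapped a fed one for any of these 5 genes.

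The other 7 of the 12 largest increases lay in genes of varied kinds. C35C5.8, C23G10.11 and C06G3.3 rose by 7.33-fold, 7.33-fold and 6.17-fold. The fatty-acid- and retinol-binding protein gene far-7 gave 605, 470.3 and 927 in fasted worms, against 119.5, 82.1 and 75.8 in fed worms, and pair 3 showed the widest gap. The bestrophin gene best-1, of a family of anion channels, gave 703, 511 and 589.9 in fasted worms, against 100.4, 76.4 and 84.99 in fed worms, a change of 2.78 ± 0.08 log2 units (adjusted p = 3.7e-05). The gene zig-3, for a small secreted immunoglobulin-domain protein, gave 802, 667 and 579.9 in fasted worms, against 168, 137 and 73.8 in fed worms. The aquaglyceroporin gene aqp-1, whose product passes glycerol, gave 1797, 1843 and 1122 in fasted worms, against 332, 213 and 323 in fed worms, a change of 2.45 ± 0.23 log2 units (adjusted p = 0.00178).

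Among the largest decreases were those of ctsa-1.2, asp-17, ilys-5 and spp-4. The gene ctsa-1.2, for a cathepsin A-like serine carboxypeptidase, gave 80.2, 78.5 and 70.01 in fasted worms, against 3163, 2869.6 and 2025 in fed worms, a change of -5.12 ± 0.11 log2 units (adjusted p = 1.51e-05). The aspartyl protease gene asp-17 gave 143, 136 and 40.1 in fasted worms, against 1763, 1507 and 1222 in fed worms. The invertebrate-type lysozyme gene ilys-5 gave 348, 469.9 and 205 in fasted worms, against 9524, 10335 and 3896 in fed worms. All fed arrays of these 3 genes lay far above all fasted arrays. The saposin-like gene spp-4 gave 85.2, 53.6 and 38.2 in fasted worms, against 2049.5, 1461 and 832 in fed worms, a change of -4.60 ± 0.10 log2 units (adjusted p = 1.46e-05). The genes hrg-11.2 and hrg-11.3 fell by 28.4-fold and 16.5-fold, and bcf-1 and F28H7.3 by 22.8-fold and 18.3-fold.

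The remaining members of the 12 largest decreases were genes known from infection and ageing studies and a collagen gene. The gene dod-19, found downstream of DAF-16, gave 185, 179 and 106 in fasted worms, against 3175, 3716 and 2446 in fed worms, a change of -4.34 ± 0.11 log2 units (adjusted p = 2.2e-05). The infection response gene irg-8 gave 38.1, 40.3 and 49.5 in fasted worms, against 409, 876 and 799 in fed worms. The gene sysm-1, a classic target of the p38 kinase PMK-1 in the intestine, gave 38.8, 50.3 and 42.5 in fasted worms, against 1114, 1605 and 166 in fed worms. The 3 fasted arrays of sysm-1 were alike and the fed array of pair 3 lay far below the other fed arrays, so its change was -4.85 in pair 1, -4.99 in pair 2 and -1.96 in pair 3. The cuticle collagen gene col-159 gave 71.3, 70.4 and 382 in fasted worms, against 1553, 1050.4 and 3186 in fed worms, with pair 3 the highest in both groups. The call of sysm-1 ended on log2(value + 64) and with a trended and robust variance (adjusted p from 0.057 to 0.111).

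**Figure D2:**
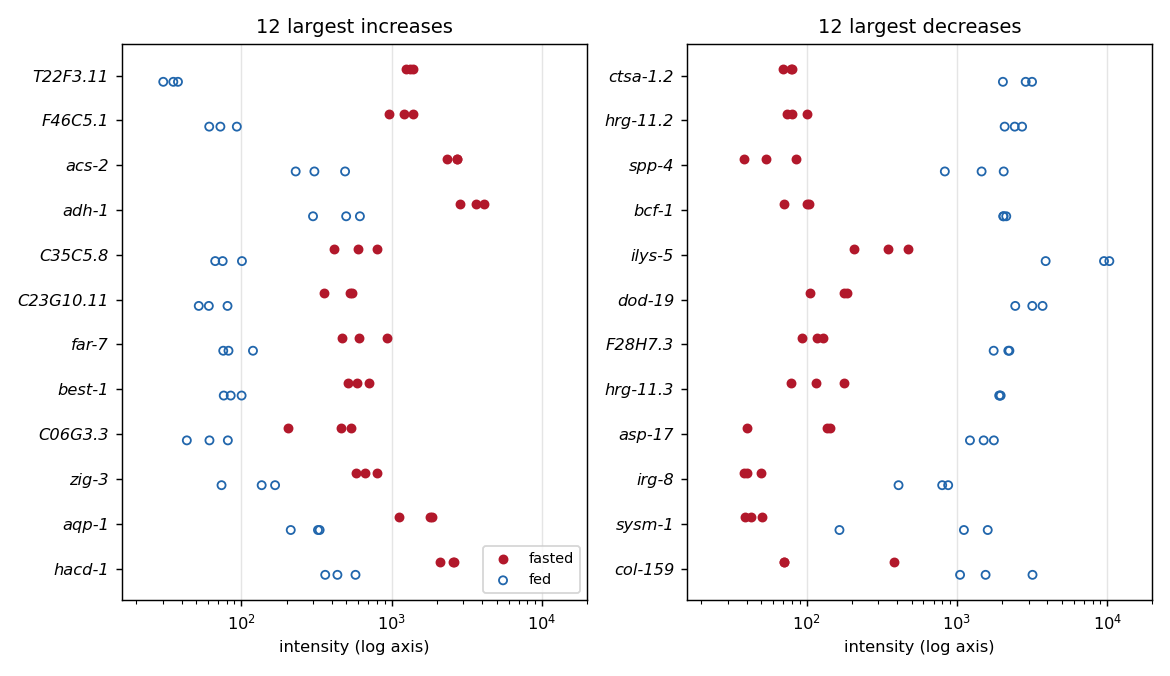
Intensity on each array (horizontal log axis) of the 12 genes with the largest increases (left) and the 12 with the largest decreases (right) among genes past the threshold whose groups do not overlap; filled red points are the 3 fasted arrays and open blue points the 3 fed arrays of the mek-1 strain. The spread within a group is small beside the gap for most genes, with sysm-1 and col-159 as wide exceptions.

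Genes of fatty acid activation and beta-oxidation moved both ways. Of 57 measured, 5 rose and 6 fell, with a median change of 0.05. Besides acs-2 and hacd-1, acs-11 rose by 1.99-fold, and acs-19, an acetyl-CoA synthetase gene, rose by 1.68-fold. The gene acs-1, whose acyl-CoA synthetase serves the monomethyl branched-chain fatty acids, gave 359, 389 and 393 in fasted worms, against 1333, 1318 and 1569 in fed worms, a change of -1.88 ± 0.09 log2 units (adjusted p = 0.000184). The 2 probe sets of acs-1 changed by nearly the same amount (the other by -1.83 log2 units). The peroxisomal acyl-CoA oxidase gene acox-1.5, of the enzymes that shorten ascaroside side chains, gave 211, 155 and 97.2 in fasted worms, against 651, 565 and 195 in fed worms, and its groups overlap, with both arrays of pair 3 low. When pair 1, 2 or 3 was left out, there were 5, 4 and 4 that rose and 3, 3 and 17 that fell, and without the pairing 4 that rose and 1 that fell. The call of acox-1.5 ended without the pairing (adjusted p = 0.171).

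Among 21 genes of fatty acid synthesis, desaturation and elongation, 1 rose and 3 fell (median 0.02). The delta-9 desaturase gene fat-7, which makes oleate from stearate, gave 75.5, 155 and 76.4 in fasted worms, against 455, 445 and 243 in fed worms, a change of -1.93 ± 0.21 log2 units (adjusted p = 0.00295). Its paralogues did not pass: fat-6 gave 1959.5, 2972 and 2074 in fasted worms, against 3144, 3121 and 2305 in fed worms. The gene fat-5 gave 844, 1115 and 1712 in fasted worms, against 1503, 1109.9 and 702 in fed worms. The fasted and fed arrays of both overlap, and fat-5 was lower in fasted worms in pair 1, nearly equal in pair 2 and higher in pair 3. The receptor gene nhr-80, known to support delta-9 desaturase expression, fell by 1.43-fold, while nhr-49 gave 1358, 1603 and 1353 in fasted worms, against 1244, 1544 and 1141 in fed worms, and did not pass (adjusted p = 0.333). The elongase gene elo-6, of branched-chain fatty acid synthesis, gave 2368, 2749 and 2016 in fasted worms, against 1376, 1252 and 1304 in fed worms, a change of 0.85 ± 0.12 log2 units. The elongase gene elo-3 fell by 1.31-fold. The call of nhr-80 ended without the pairing and without pair 1 or 2 (adjusted p from 0.0603 to 0.115), and that of elo-3 without the pairing and without pair 1, 2 or 3 (adjusted p from 0.0803 to 0.282). The call of elo-3 also ended with quantile normalization and with median centring (adjusted p from 0.0542 to 0.0861).

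Lipase genes fell more often than they rose, 7 against 1 of 30. Counts without pair 1, 2 or 3 were 5, 5 and 9 that fell, against 4 that fell without the pairing. On log2(value + 64) 3 lipase genes fell. The lipase-like gene lips-11 gave 29.1, 30.9 and 23.5 in fasted worms, against 187, 352 and 76.3 in fed worms, a change of -2.63 ± 0.31 log2 units (adjusted p = 0.00428), and lips-14 fell by 2.91-fold. Among the lysosomal lipases, lipl-2 gave 95.8, 122.5 and 43.4 in fasted worms, against 214, 238 and 156 in fed worms. The gene lipl-1 gave 380.5, 289 and 107 in fasted worms, against 671, 404 and 247 in fed worms. In each of the 3 pairs both were lower in the fasted array, and the arrays of pair 3 were the lowest of their group. The gene lipl-3, known as a fasting-induced lysosomal lipase, was the 1 lipase that rose, at 38.8, 44.05 and 65.8 in fasted worms, against 31.7, 26.4 and 30.9 in fed worms. The gene lipl-4, a lysosomal lipase linked to long life, gave 71.7, 120.1 and 28.5 in fasted worms, against 81.9, 48.6 and 20.7 in fed worms, and did not pass (adjusted p = 0.239). The call of lipl-2 ended without the pairing (adjusted p = 0.121), and that of lipl-1 without the pairing and without pair 1 (adjusted p from 0.0564 to 0.491). That of lipl-3 ended without the pairing and without pair 2 or 3 (adjusted p from 0.0595 to 0.152). The call of lips-11 ended on log2(value + 64) (adjusted p = 0.0539). The call of lipl-3 also ended on log2(value + 16), on log2(value + 64) and with quantile normalization (adjusted p from 0.0514 to 0.101).

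Of 17 lipid-binding protein genes, 4 fell and far-7 alone rose. The secreted gene far-3 gave 277, 335 and 459 in fasted worms, against 3073, 2186 and 875 in fed worms, a change of -2.37 ± 0.43 log2 units, and the fed arrays ranged widely. The intracellular lipid-binding protein genes lbp-5 and lbp-2 fell by 1.82-fold and 1.6-fold, and far-1 by 1.33-fold. Of 6 yolk genes (the vitellogenins, which carry lipid from intestine to oocytes, and their receptor), 1 fell and 0 (0 unadjusted) rose. The gene that fell was vit-1, at 454, 440.2 and 374 in fasted worms, against 2618, 2535 and 2029.8 in fed worms, a change of -2.50 ± 0.08 log2 units (adjusted p = 5.38e-05). In contrast vit-2 gave 7122, 6253 and 7792 in fasted worms, against 6276, 6041 and 7135 in fed worms, and did not pass (adjusted p = 0.393). Vitellogenin genes are close copies of each other, so probe sets may read more than 1 of them. The call of far-3 ended without pair 2 (adjusted p = 0.0805), and those of lbp-5 and lbp-2 without the pairing (adjusted p from 0.0649 to 0.0836). That of far-1 ended without the pairing and without pair 1, 2 or 3 (adjusted p from 0.0524 to 0.157). The call of far-3 also ended on log2(value + 64) and with a trended and robust variance (adjusted p from 0.0617 to 0.156).

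Genes of glucose synthesis and of the glyoxylate bypass were among those that rose. Of 26 genes of glycolysis and gluconeogenesis, 4 rose (7 at an unadjusted p under 0.05 in limma) and 0 (0 unadjusted) fell. The gene icl-1, whose enzyme holds both steps of the glyoxylate bypass from fat to sugar, gave 3599, 3622 and 2835 in fasted worms, against 2174, 1611 and 506 in fed worms, a change of 1.46 ± 0.31 log2 units (adjusted p = 0.0359). The phosphoenolpyruvate carboxykinase gene pck-2 gave 4145, 5011 and 3033 in fasted worms, against 2346, 2754 and 1939 in fed worms, a change of 0.78 ± 0.09 log2 units, whereas its paralogue pck-1 gave 959, 683 and 536 in fasted worms, against 1157, 734 and 255 in fed worms, and did not pass. For pck-2 every fasted array lay above every fed array, and for pck-1 the groups overlap. The pyruvate carboxylase gene pyc-1 and the pyruvate kinase gene pyk-2 rose by 1.45-fold and 1.55-fold. The calls of icl-1 and pyk-2 ended without the pairing and without pair 2 (adjusted p from 0.0751 to 0.189), and that of pck-2 without the pairing (adjusted p = 0.114). That of pyc-1 ended without the pairing and without pair 1, 2 or 3 (adjusted p from 0.0533 to 0.135). The call of icl-1 also ended on log2(value + 64) and with a trended and robust variance (adjusted p from 0.0738 to 0.188).

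Of 14 trehalose and alpha-glucosidase genes, 1 rose and 3 fell. The acid alpha-glucosidase gene aagr-2, whose product breaks down glycogen in the lysosome, gave 1148, 858 and 718 in fasted worms, against 4278, 3257 and 2139 in fed worms. The gene aagr-1 gave 349, 314 and 211 in fasted worms, against 1171, 1218 and 678 in fed worms. Both fell in every pair, by 3.48-fold and 3.47-fold on average. The trehalase gene tre-3 fell by 1.54-fold, and tps-1, for trehalose 6-phosphate synthase, rose by 1.47-fold, although its other probe set did not pass (0.37 log2 units). The call of tre-3 ended without the pairing and without pair 1 or 2 (adjusted p from 0.15 to 0.258), and that of tps-1 without the pairing and without pair 2 or 3 (adjusted p from 0.0504 to 0.337). The call of tre-3 also ended on log2(value + 64) (adjusted p = 0.0667).

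Of 26 genes of the TCA cycle 3 rose, namely those for mitochondrial isocitrate dehydrogenase (idh-2), citrate synthase (cts-1) and aconitase (aco-2), by 1.57-fold, 1.39-fold and 1.29-fold. Of 66 genes of the respiratory chain and ATP synthase 3 rose (4.55%, beside 4.47% of all genes), among them ucr-2.3 by 0.41 ± 0.08 log2 units, and 0 (0 unadjusted) fell. At an unadjusted p under 0.05 in limma, 11 of the first list and 33 of the second passed. The count for the TCA cycle was 7 on log2(value + 16) and on log2(value + 64), and 6 with median centring. That for the respiratory chain was 17 on log2(value + 16), 25 on log2(value + 64), 9 with median centring and 0 without pair 1, without pair 2 or without the pairing. Of 56 mitochondrial ribosomal protein genes 0 passed, 16 did at an unadjusted p under 0.05, and 5 rose on log2(value + 64). The medians of these 3 lists were 0.16, 0.21 and 0.16. The calls of cts-1 and ucr-2.3 ended without the pairing and without pair 1 or 2 (adjusted p from 0.0794 to 0.18), and that of aco-2 without the pairing and without pair 1, 2 or 3 (adjusted p from 0.0571 to 0.22). The call of ucr-2.3 also ended with quantile normalization (adjusted p = 0.0524).

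Genes for protein digestion in lysosomes and gut fell as a group. Of 39 measured, 26 fell and 1 rose, with a median change of -0.82, beside 6.54% and 4.47% of all genes. Leaving out pair 1, 2 or 3 gave 19, 21 and 28 that fell, and ignoring the pairing 17 that fell. The cathepsin B-like gene cpr-5 gave 113, 86.6 and 99.0 in fasted worms, against 1191, 778 and 275 in fed worms, and its relative cpr-9 gave 1831, 1101 and 897 in fasted worms, against 8253, 8112 and 2821 in fed worms. The fed array of pair 3 was the lowest of the fed arrays for both, and still above every fasted array. The 1 gene that rose was the aspartyl protease asp-11, at 68.6, 47.3 and 78.5 in fasted worms, against 34.7, 34.8 and 31.5 in fed worms. The call of asp-11 ended without pair 1 (adjusted p = 0.0696). The call of cpr-5 ended with a trended and robust variance (adjusted p = 0.0863). The call of asp-11 also ended on log2(value + 64) (adjusted p = 0.0634).

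The intestine markers fell too, 12 of 18, with a median change of -0.68. Fits without pair 1, 2 or 3 counted 8, 8 and 12 that fell, and the unpaired fit 7 that fell. In RNA from whole worms, lower levels within a tissue and a smaller share of that tissue in the total RNA cannot be told apart. The microvillar actin gene act-5 gave 279.5, 231 and 179.8 in fasted worms, against 1139.6, 1032 and 1461 in fed worms, a change of -2.40 ± 0.19 log2 units (adjusted p = 0.000972). Among intermediate filament genes, whose proteins line the intestinal lumen, ifb-2 gave 108, 87.3 and 106 in fasted worms, against 405, 329.9 and 468 in fed worms. The gene ifc-2 gave 243, 215 and 228 in fasted worms, against 729, 602 and 654 in fed worms. Fasted and fed arrays were well apart for all 3 genes, and 3 probe sets of ifc-2 all fell. The aspartyl protease gene asp-1 fell by 3.31-fold. The GATA factor gene elt-2, the main regulator of intestinal genes, gave 196.2, 156 and 240.1 in fasted worms, against 288, 211 and 288 in fed worms, a smaller change of -0.42 ± 0.09 log2 units (adjusted p = 0.0429), and its second probe set changed by -0.54 log2 units. Of these markers 7 also stand in another list, asp-1, cpr-1 and cpr-6 among the lysosomal proteases. The summed intensity of the marker list ran from 10622 to 14476 in fasted worms and from 19569.6 to 30531 in fed worms. The call of elt-2 ended without the pairing and without pair 1 or 2 (adjusted p from 0.2 to 0.358). The call of asp-1 ended with a trended and robust variance (adjusted p = 0.108).

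Of 19 subunits of the vacuolar ATPase, the pump that acidifies lysosomes and the gut lumen, 3 fell and 0 (0 unadjusted) rose. These were the intestinal subunit vha-6, at 342, 281 and 269 in fasted worms, against 794, 633 and 883 in fed worms, and vha-5 and vha-12, which fell by 1.65-fold and 1.47-fold. Of 10 aquaporin genes 3 rose and 1 fell. Besides aqp-1, the gene aqp-8 gave 246, 198 and 162 in fasted worms, against 134, 105 and 100.2 in fed worms. The gene aqp-7 gave 1548, 1224 and 1473 in fasted worms, against 1053, 618 and 905 in fed worms, while aqp-4 fell by 1.5-fold. The calls of vha-5 and aqp-7 ended without the pairing and without pair 2 (adjusted p from 0.0581 to 0.214), and that of vha-12 without pair 1 (adjusted p = 0.0911). That of aqp-8 ended without the pairing (adjusted p = 0.0613), and that of aqp-4 without the pairing and without pair 1 or 2 (adjusted p from 0.0624 to 0.229). The call of vha-5 also ended on log2(value + 16), on log2(value + 64) and with quantile normalization (adjusted p from 0.0518 to 0.101). The call of aqp-4 also ended on log2(value + 64) and with quantile normalization (adjusted p from 0.0593 to 0.0638).

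Of 16 lysozyme genes 7 fell and 2 rose, with a median of -0.72. The gene lys-2 gave 100.6, 145 and 117 in fasted worms, against 997, 1113 and 2840.0 in fed worms. The gene lys-1 gave 593, 461 and 461 in fasted worms, against 2643, 2479.5 and 3441 in fed worms. The gene lys-7, a lysozyme gene that also counts as a DAF-16 target, gave 4025, 2579 and 727 in fasted worms, against 9134, 8844 and 6132 in fed worms. All fasted arrays lay below all fed arrays for these genes. In the other direction, ilys-3, an invertebrate-type lysozyme that acts on ingested bacteria, gave 2024, 2847 and 2142 in fasted worms, against 538, 832 and 219 in fed worms, a change of 2.33 ± 0.29 log2 units (adjusted p = 0.00522). Its paralogue ilys-2 gave 986, 1152 and 575 in fasted worms, against 217, 462 and 87.9 in fed worms. Thus ilys-5 fell 22.5-fold while ilys-2 and ilys-3 rose 4.2-fold and 5.01-fold. The calls of lys-7 and ilys-2 ended without the pairing (adjusted p from 0.11 to 0.122). The calls of lys-7 and ilys-3 also ended with a trended and robust variance (adjusted p from 0.0779 to 0.129).

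Of 54 saposin-like and antimicrobial peptide genes 21 fell and 1 rose (median -0.44). There were 12, 12 and 32 that fell without pair 1, 2 or 3, and 12 that fell without the pairing. Here spp-23 gave 56.2, 86.4 and 36.03 in fasted worms, against 1144, 700.3 and 419 in fed worms, spp-18 fell by 4.16-fold, and spp-31 rose to 281, 276 and 249.7 in fasted worms, against 147, 120.2 and 122 in fed worms. The caenacin gene cnc-4 gave 109, 164 and 92.9 in fasted worms, against 571, 735 and 141 in fed worms, and its fed array of pair 3 lay within the fasted range. Of 220 C-type lectin genes 31 fell and 9 rose, with a median of -0.04. The list held 5, 2 and 10 that rose and 28, 25 and 36 that fell without pair 1, 2 or 3, and 2 that rose and 23 that fell without the pairing. On log2(value + 64) 20 lectin genes fell. The lectin gene clec-41 gave 145, 120.0 and 88.3 in fasted worms, against 1459, 1218 and 1673 in fed worms, a change of -3.64 ± 0.19 log2 units (adjusted p = 0.000234), and clec-85, clec-174 and clec-50 fell by 6.64-fold, 5.94-fold and 5.66-fold. Among those that rose, clec-82 and clec-47 changed by 1.24 ± 0.13 and 1.17 ± 0.21 log2 units. The call of cnc-4 ended without the pairing and without pair 1 or 2 (adjusted p from 0.0682 to 0.192), and that of clec-47 without pair 2 (adjusted p = 0.0572). The call of cnc-4 also ended on log2(value + 64) and with a trended and robust variance (adjusted p from 0.0767 to 0.134).

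The list of p38 pathway and pathogen response genes had the lowest median of the 55 lists, -1.61. The lists were written with earlier results of these data known, so this rank is not independent evidence. Of its 26 measured genes 17 fell and 1 rose. When pair 1, 2 or 3 was left out, there were 14, 15 and 18 that fell, and without the pairing 15 that fell. Besides dod-19, irg-8 and sysm-1, F01D5.2 gave 17.7, 25.2 and 18.6 in fasted worms, against 333, 358 and 183.1 in fed worms. The kinase genes themselves did not pass: pmk-1, the p38 kinase, gave 300.1, 336 and 473 in fasted worms, against 314, 334 and 371 in fed worms. The gene sek-1, its MAP kinase kinase, gave 349.5, 269 and 276 in fasted worms, against 310.1, 180.2 and 209.7 in fed worms. The gene atf-7, for the transcription factor below PMK-1, gave 648, 813 and 602 in fasted worms, against 636, 734 and 600.0 in fed worms. The fasted and fed arrays overlap for all 3. The 1 gene of the list that rose was hlh-30, at 333, 275 and 560.0 in fasted worms, against 199, 171 and 257 in fed worms, a change of 0.85 ± 0.11 log2 units (adjusted p = 0.00693), though a further probe set missed the threshold (0.46 log2 units) and another changed by -0.04 log2 units. Of 23 pals genes, a family known from infection by intracellular pathogens, 3 rose and 1 fell, the last being pals-6 at 39.6, 49.5 and 42.1 in fasted worms, against 147, 106 and 74.4 in fed worms. With quantile normalization 0 pals genes rose and 1 fell, and on log2(value + 64) 0 rose and 0 fell. Counts without pair 1, 2 or 3 were 1, 0 and 0 that rose, against 0 that rose without the pairing. The call of hlh-30 ended without the pairing (adjusted p = 0.179). The call of pals-6 ended on log2(value + 64) (adjusted p = 0.0535).

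**Figure D3:**
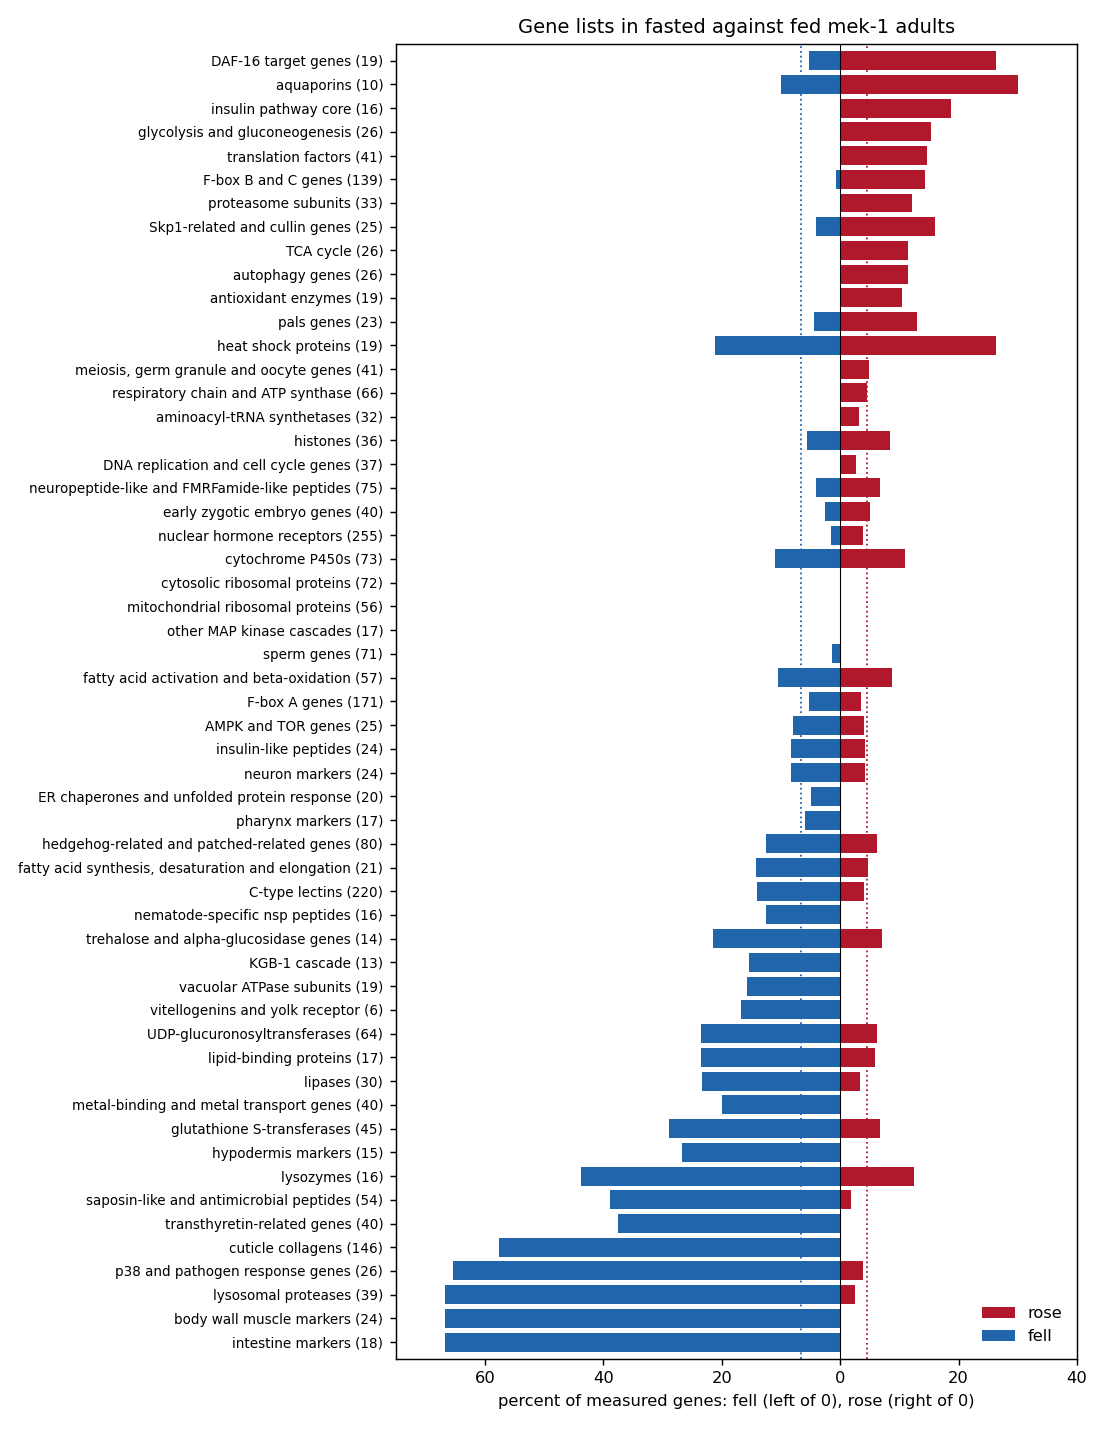
Percent of the measured genes of each of the 55 lists (count in brackets) that fell (blue, left of 0) or rose (red, right of 0) in fasted against fed mek-1 worms; dotted lines mark the shares over all genes, 6.54% and 4.47%. Intestine and body wall muscle markers, lysosomal proteases, p38 and pathogen response genes and cuticle collagens have the longest blue bars.

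Cuticle collagen genes fell as a group. Of 146 measured, 84 fell and 0 (0 unadjusted) rose, with a median of -0.93. The mean log2 level of the list was 6.37, 6.24 and 7.21 in fasted worms and 7.46, 7.26 and 8.03 in fed worms. Each fasted array thus lay below its own fed array, and both arrays of pair 3 were the highest of their group. Leaving out pair 1, 2 or 3 gave 72, 68 and 94 that fell, and ignoring the pairing 11 that fell. The gene col-160 gave 374, 370.4 and 1846 in fasted worms, against 4342, 3901 and 6604 in fed worms, and its second probe set changed by the same amount (-2.92 log2 units). The gene col-98 fell by 6.76-fold and col-183 by 7.19-fold. Collagen genes are similar in sequence, so some probe sets may read several of them. Hypodermis markers, the tissue that makes cuticle, fell in 4 of 15 cases, among them the collagen genes dpy-7, col-19 and rol-6, which are also cuticle genes, by 3.09-fold, 2.66-fold and 2.51-fold. The call of col-183 ended without the pairing and without pair 2 (adjusted p from 0.0653 to 0.0656), and those of col-19 and rol-6 without the pairing (adjusted p from 0.262 to 0.324). The call of col-160 ended with a trended and robust variance (adjusted p = 0.0705). The call of col-183 also ended on log2(value + 64) and with a trended and robust variance (adjusted p from 0.0849 to 0.144).

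Genes of the body wall muscle sarcomere fell likewise, 16 of 24, with a median of -0.82. The mean log2 level was 8.47, 8.11 and 8.58 in fasted worms and 9.27, 8.69 and 9.70 in fed worms. The troponin T gene tnt-2 gave 114, 95.5 and 158.8 in fasted worms, against 541, 310.5 and 1117 in fed worms. The troponin I gene unc-27 gave 519, 343 and 645 in fasted worms, against 1535, 838 and 2370.5 in fed worms, and the myosin heavy chain gene unc-54 gave 153, 143 and 208 in fasted worms, against 456, 275 and 759 in fed worms. Each was lower in the fasted array of every pair, and the levels themselves differed between pairs, lowest in pair 2 and highest in pair 3. The calponin-like gene unc-87 fell by 2.73-fold, and its other 2 probe sets changed by -1.24 and -1.55 log2 units. Fits without pair 1, 2 or 3 counted 13, 13 and 13 that fell, and the unpaired fit 1 that fell. Of 17 pharynx markers 1 fell (phat-3, by 1.45-fold) and 0 (0 unadjusted) rose. The calls of unc-27, unc-54 and unc-87 ended without the pairing (adjusted p from 0.0723 to 0.122), and that of phat-3 without the pairing and without pair 1 or 2 (adjusted p from 0.0648 to 0.336).

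**Figure D4:**
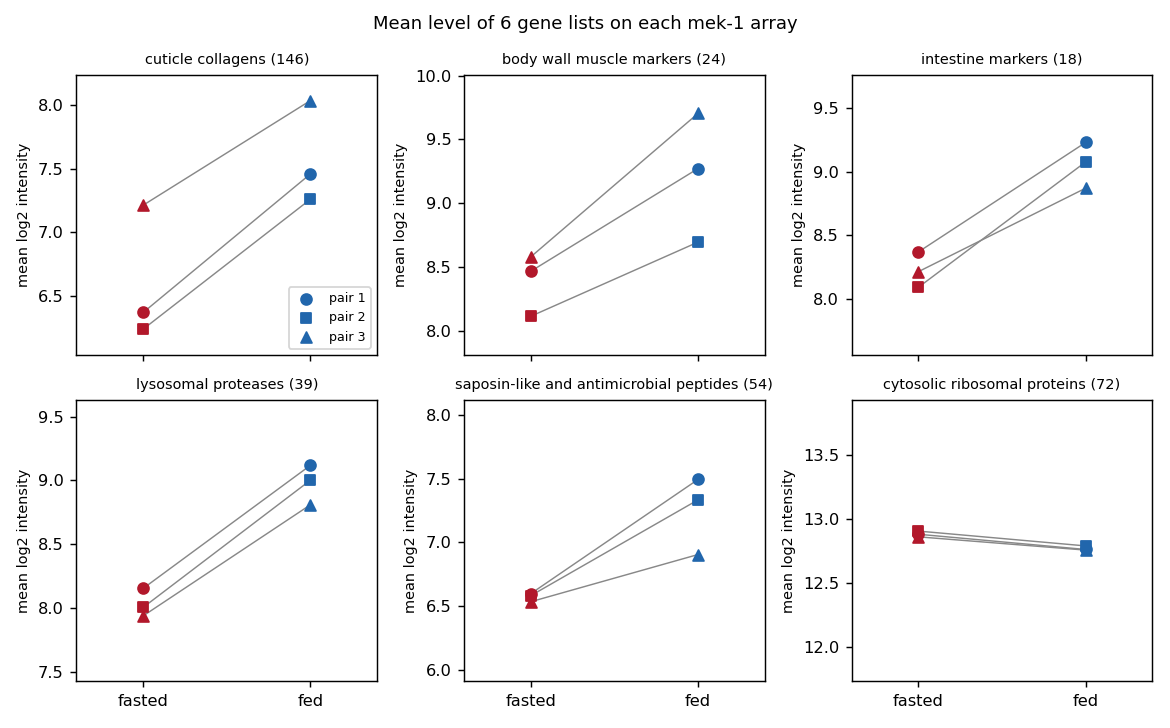
Mean log2 intensity of 6 gene lists on each mek-1 array, fasted left and fed right, with the arrays of the same number joined (circles pair 1, squares pair 2, triangles pair 3), and each panel has its own vertical range. Collagens, muscle and intestine markers, lysosomal proteases and saposin-like genes were lower in the fasted array of every pair, whereas cytosolic ribosomal protein genes were slightly higher.

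Other families of nematode genes, for secreted proteins and for patched-related receptor-like proteins, moved down or both ways. Of 40 transthyretin-related genes 15 fell and 0 (4 unadjusted) rose. There were 9, 9 and 15 that fell without pair 1, 2 or 3, and 4 that fell without the pairing. The gene ttr-35 gave 206, 139.7 and 173 in fasted worms, against 1015, 746 and 1001 in fed worms, a change of -2.42 ± 0.09 log2 units (adjusted p = 8.25e-05), and ttr-46 fell by 3.2-fold. Of 80 hedgehog-related and patched-related genes 5 rose and 10 fell. The list held 2, 1 and 7 that rose and 4, 3 and 12 that fell without pair 1, 2 or 3, and 3 that rose and 4 that fell without the pairing. The members that rose most were the patched-related receptor-like genes ptr-3, ptr-23 and ptr-6 (0.89 ± 0.09, 0.62 ± 0.10 and 0.59 ± 0.09 log2 units), although the other 3 probe sets of ptr-23 and the other of ptr-6 did not pass. Those that fell most were the hedgehog-related genes grd-14, grl-22, grd-3 and grd-5, by 4.13-fold, 2.99-fold, 2.69-fold and 2.4-fold. Of 16 nsp peptide genes 2 fell, nspd-7 by 3.08-fold and nspe-7 by 1.44-fold. The call of ptr-23 ended without pair 2 (adjusted p = 0.0567), and that of ptr-6 without pair 1 or 2 (adjusted p from 0.0633 to 0.0752). Those of grd-5 and nspe-7 ended without the pairing and without pair 1 or 2 (adjusted p from 0.0646 to 0.148). The call of grd-5 also ended on log2(value + 64) and with a trended and robust variance (adjusted p from 0.0969 to 0.104).

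Among detoxification genes, glutathione S-transferases and UDP-glucuronosyltransferases fell more often than they rose, and their few increases depended on the pairs and the pairing. Of 45 glutathione S-transferase genes 13 fell (28.9%) and 3 rose (6.67%), beside 6.54% and 4.47% of all genes. When pair 1, 2 or 3 was left out, there were 0, 0 and 6 that rose and 11, 12 and 14 that fell, and without the pairing 0 that rose and 9 that fell. The gene gst-10 gave 42.4, 41.9 and 45.5 in fasted worms, against 214, 249.8 and 307 in fed worms, a change of -2.56 ± 0.11 log2 units (adjusted p = 0.000129), and gst-27, gst-42 and gst-26 fell by 3.19-fold, 2.9-fold and 2.56-fold. In contrast gst-7 gave 1786, 2019 and 1656 in fasted worms, against 1283, 1379 and 1124 in fed worms, with all fasted arrays higher. Of 64 UDP-glucuronosyltransferase genes, which tag small lipophilic molecules for export, 15 fell (23.4%) and 4 rose (6.25%). Counts without pair 1, 2 or 3 were 1, 1 and 6 that rose and 11, 10 and 24 that fell, against 0 that rose and 7 that fell without the pairing. The gene ugt-26 gave 407, 312 and 785 in fasted worms, against 1817, 1266 and 2850.1 in fed worms, and ugt-22 and ugt-44 fell by 3.93-fold and 2.85-fold. The call of gst-7 ended without the pairing and without pair 1 or 2 (adjusted p from 0.0553 to 0.103).

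Of 73 cytochrome P450 genes 8 rose and 8 fell, with a median of 0.01. Leaving out pair 1, 2 or 3 gave 5, 2 and 6 that rose and 6, 6 and 13 that fell, and ignoring the pairing 0 that rose and 4 that fell. The gene cyp-34A9 gave 987, 971 and 400.4 in fasted worms, against 650.4, 367 and 71.9 in fed worms, higher in the fasted array of every pair although the groups overlap. The gene cyp-35C1 gave 42.4, 56.0 and 53.0 in fasted worms, against 146, 146 and 370.2 in fed worms, and cyp-36A1 and cyp-13A2 fell by 2.8-fold and 2.23-fold. The call of cyp-34A9 ended without the pairing and without pair 2 (adjusted p from 0.103 to 0.401). The call of cyp-34A9 also ended on log2(value + 64) and with a trended and robust variance (adjusted p from 0.0537 to 0.173).

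Small heat shock proteins moved in opposite directions. Of 19 heat shock protein genes 5 rose and 4 fell. Fits without pair 1, 2 or 3 counted 6, 4 and 5 that rose and 3, 2 and 4 that fell, and the unpaired fit 4 that rose and 1 that fell. The gene hsp-12.3 gave 479.7, 379 and 182 in fasted worms, against 73.2, 95.3 and 63.8 in fed worms. The gene hsp-12.6, a DAF-16 target, gave 168, 204 and 72.1 in fasted worms, against 51.7, 55.9 and 27.5 in fed worms, a change of 1.65 ± 0.11 log2 units (adjusted p = 0.000536). The inducible genes hsp-16.2 and hsp-70 rose by 1.87-fold and 1.86-fold. Against them hsp-17 gave 278, 232 and 211 in fasted worms, against 935, 774 and 1341 in fed worms, and hsp-43, hsp-12.1 and hsp-25 fell by 1.68-fold, 1.67-fold and 1.6-fold. Of 20 genes of ER chaperones and the unfolded protein response 1 fell, the transcription factor gene atf-4 (by 1.42-fold), and 0 (2 unadjusted) rose. The call of hsp-12.6 ended without the pairing (adjusted p = 0.0919), and that of hsp-16.2 without pair 2 (adjusted p = 0.0986). Those of hsp-43 and hsp-12.1 ended without the pairing and without pair 2 (adjusted p from 0.0553 to 0.179), and that of hsp-25 without the pairing and without pair 1 (adjusted p from 0.0527 to 0.0799). That of atf-4 ended without the pairing and without pair 1 or 2 (adjusted p from 0.0958 to 0.206).

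Of 19 target genes of DAF-16, the FOXO factor below insulin signalling, 5 rose and 1 fell, and 12 of the 19 also stand in another list. There were 8, 2 and 6 that rose without pair 1, 2 or 3, and 2 that rose without the pairing. Besides icl-1, hsp-12.6, hsp-16.2 and lys-7, the linker histone gene hil-1 gave 466, 477 and 424 in fasted worms, against 218, 171 and 93.6 in fed worms. The manganese superoxide dismutase gene sod-3, a widely used DAF-16 reporter, gave 120.4, 133 and 135 in fasted worms, against 146, 116 and 147 in fed worms, and did not pass (adjusted p = 0.74). The metallothionein gene mtl-1, another such target, gave 1266, 1862 and 569 in fasted worms, against 900.3, 675 and 85.1 in fed worms, higher in the fasted array of every pair but short of the threshold (adjusted p = 0.0512). Of 19 antioxidant enzyme genes 2 rose, the thioredoxin gene trx-2 and the thioredoxin reductase gene trxr-1, by 1.43-fold and 1.32-fold, and 0 (0 unadjusted) fell. Of 40 genes of metal binding and transport 8 fell and 0 (8 unadjusted) rose, among them hrg-11.4 at 140.0, 86.9 and 85.6 in fasted worms, against 518, 403 and 265 in fed worms, and cdr-2, of the cadmium-responsive family, by 3.04-fold. The list held 6, 5 and 11 that fell without pair 1, 2 or 3, and 5 that fell without the pairing. The call of trx-2 ended without the pairing and without pair 1 or 2 (adjusted p from 0.0781 to 0.112), and that of trxr-1 without the pairing and without pair 1, 2 or 3 (adjusted p from 0.055 to 0.291). That of cdr-2 ended without the pairing (adjusted p = 0.112).

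Of 13 genes of the kinase cascade to which MEK-1 belongs, 2 fell (15.4%, beside 6.54% of all genes; 5 at an unadjusted p under 0.05 in limma) and 0 (1 unadjusted) rose. Besides mek-1, the gene that fell was jun-1, for a bZIP factor of the AP-1 family, at 423, 386 and 469 in fasted worms, against 584, 557 and 752 in fed worms, a change of -0.56 ± 0.09 log2 units (adjusted p = 0.014), and its second probe set changed by -0.71 log2 units. The upstream kinase gene mlk-1 gave 166, 167 and 128 in fasted worms, against 197, 196.2 and 149 in fed worms, and did not pass (adjusted p = 0.125), although its second, dimmer probe set changed by -0.43 log2 units (adjusted p = 0.0281). The terminal kinase gene kgb-1 gave 215, 165 and 172 in fasted worms, against 186, 194 and 193 in fed worms, its paralogue kgb-2 gave 184, 135 and 143 in fasted worms, against 152, 121 and 89.7 in fed worms. The gene fos-1, a second AP-1 gene, gave 170.0, 163 and 160.4 in fasted worms, against 156, 154 and 197 in fed worms. The groups overlap for these 3 genes and none passed (adjusted p = 0.749, 0.104 and 0.898). The phosphatase gene vhp-1, whose product switches off KGB-1, gave 498, 534 and 469 in fasted worms, against 680.0, 592 and 611 in fed worms, lower on every fasted array but not past the threshold (adjusted p = 0.0842). The adaptor gene shc-1 was likewise lower on every fasted array, at 32.05, 34.2 and 33.7 in fasted worms, against 57.4, 41.4 and 43.96 in fed worms (adjusted p = 0.0589).

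Of the inputs to the cascade, svh-1, svh-2, max-2, ced-10 and mig-2 did not pass. The growth-factor-like gene svh-1 and its receptor tyrosine kinase gene svh-2 changed by 0.13 ± 0.11 and -0.20 ± 0.09 log2 units. The kinase gene max-2 and the small GTPase genes ced-10 and mig-2 changed by 0.11 ± 0.10, 0.11 ± 0.09 and 0.06 ± 0.10 log2 units. Of 17 genes of other MAP kinase cascades 0 passed, and 7 rose and 1 fell at an unadjusted p under 0.05 in limma. The call of jun-1 ended without the pairing and without pair 2 (adjusted p from 0.0866 to 0.112).

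Insulin-like and neuropeptide genes held a few large changes. Of 24 insulin-like peptide genes 1 rose (4.17%) and 2 fell (8.33%), beside 4.47% and 6.54% of all genes. When pair 1, 2 or 3 was left out, there were 0, 0 and 5 that rose, and without the pairing 0 that rose. The agonist gene ins-7 gave 433, 219 and 507 in fasted worms, against 2251, 1670.5 and 1184 in fed worms, a change of -2.18 ± 0.30 log2 units (adjusted p = 0.00785), with all fed arrays above all fasted arrays. The genes ins-6 and ins-24 changed by -0.39 ± 0.09 and 0.57 ± 0.12 log2 units, and a second probe set of ins-24 by -0.02 log2 units. Of 16 core genes of the insulin pathway 3 rose, pdk-1, akt-2 and smk-1, by 1.41-fold, 1.39-fold and 1.35-fold, and 0 (1 unadjusted) fell. A further probe set of pdk-1 rose by 0.57 log2 units (limma, adjusted p = 0.00898). The remaining probe sets of pdk-1 (-0.10, 0.06 and 0.30 log2 units) and the others of smk-1 (-0.01 and 0.33 log2 units) did not pass. Neither the receptor gene daf-2 (0.08 ± 0.09 log2 units) nor daf-16 (0.12 ± 0.08 log2 units) passed. Of 25 AMPK and TOR genes 1 rose and 2 fell: the AMPK gamma subunit gene aakg-4 gave 151, 163 and 164 in fasted worms, against 106, 102 and 80.05 in fed worms, sesn-1 (sestrin) fell by 1.48-fold, and crh-1 fell by 1.33-fold, while its other probe set changed by 0.07 log2 units. The AMPK catalytic subunit gene aak-2 gave 628, 745 and 587 in fasted worms, against 589, 567 and 448 in fed worms, and did not pass (adjusted p = 0.116). The calls of ins-6, smk-1 and crh-1 ended without the pairing and without pair 1, 2 or 3 (adjusted p from 0.0568 to 0.5), and those of ins-24 and pdk-1 without the pairing and without pair 1 or 2 (adjusted p from 0.0657 to 0.365). That of akt-2 ended without the pairing and without pair 2 or 3 (adjusted p from 0.0901 to 0.411), and that of aakg-4 without pair 2 (adjusted p = 0.0601). That of sesn-1 ended without pair 1 or 2 (adjusted p from 0.0905 to 0.128). The call of ins-7 ended with a trended and robust variance (adjusted p = 0.0905). The calls of ins-6, ins-24 and akt-2 also ended on log2(value + 64) (adjusted p from 0.0586 to 0.0619). The call of crh-1 also ended on log2(value + 64), with quantile normalization and with median centring (adjusted p from 0.0551 to 0.0918).

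Of 75 neuropeptide genes 5 rose (6.67%) and 3 fell (4%), near the 4.47% and 6.54% of all genes. Counts without pair 1, 2 or 3 were 3, 1 and 3 that rose and 1, 2 and 2 that fell, against 1 that rose and 1 that fell without the pairing. With quantile normalization 9 neuropeptide genes rose. The gene nlp-51 gave 812, 802 and 739 in fasted worms, against 356, 248 and 161 in fed worms, a change of 1.69 ± 0.18 log2 units (adjusted p = 0.0032). The gene nlp-40, whose peptide the intestine releases to time defecation, gave 982, 876 and 692 in fasted worms, against 2249, 1914 and 1818 in fed worms. Both sets of groups were fully apart. Of 24 neuron markers 1 rose (4.17%) and 2 fell (8.33%), again near the shares of all genes. Here unc-18, unc-64 and unc-25 changed by 0.47 ± 0.09, -0.47 ± 0.10 and -0.38 ± 0.08 log2 units. The other probe set of unc-18 did not pass (0.15 log2 units). Of 255 nuclear hormone receptor genes 10 rose (3.92%) and 4 fell (1.57%), both below the shares of all genes. Leaving out pair 1, 2 or 3 gave 4, 2 and 13 that rose and 0, 0 and 10 that fell, and ignoring the pairing 4 that rose and 0 that fell. With median centring 16 receptor genes rose. The receptor gene nhr-21 gave 208, 164 and 207 in fasted worms, against 65.2, 69.2 and 73.1 in fed worms. The gene nhr-101 gave 172, 132 and 218 in fasted worms, against 88.5, 71.2 and 83.9 in fed worms. The calls of unc-18 and unc-64 ended without the pairing and without pair 1 or 2 (adjusted p from 0.106 to 0.212), and that of unc-25 without the pairing and without pair 1, 2 or 3 (adjusted p from 0.0501 to 0.233).

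F-box genes of the B and C groups, whose products choose substrates for Skp1-cullin ubiquitin ligases, rose in 20 of 139 cases and fell in 1. On log2(value + 64), which weighs dim probe sets less, 6 rose. Fits without pair 1, 2 or 3 counted 3, 1 and 31 that rose, and the unpaired fit 4 that rose. The levels were low: fbxb-18, with the largest change, gave 60.4, 63.7 and 59.9 in fasted worms, against 31.2, 33.9 and 38.9 in fed worms. The exception that fell, fbxc-58, gave 473, 389 and 484 in fasted worms, against 670.2, 537 and 992 in fed worms. Of 171 F-box A genes 6 rose (3.51%) and 9 fell (5.26%), below the 4.47% and 6.54% of all genes. Among them were fbxa-83 (0.67 ± 0.08 log2 units) and fbxa-60 (-0.90 ± 0.13 log2 units). With quantile normalization and with median centring the F-box A counts were 10 and 9, and 11 and 9, so the excess of decreases turned. There were 1, 2 and 5 that rose and 6, 2 and 11 that fell without pair 1, 2 or 3, and 0 that rose and 4 that fell without the pairing. Of 25 Skp1-related and cullin genes 4 rose and 1 fell. The list held 2, 1 and 7 that rose without pair 1, 2 or 3, and 2 that rose without the pairing. The gene skr-8 gave 879, 1000.0 and 721 in fasted worms, against 513, 448 and 564 in fed worms, skr-15 and skr-14 rose by 1.61-fold and 1.61-fold, and skr-5 gave 98.7, 105 and 97.0 in fasted worms, against 77.0, 75.6 and 101.1 in fed worms, and did not pass. Many of these genes are near copies of each other, so their probe sets may read several. A second probe set of skr-8 did not pass (0.64 log2 units). The call of fbxc-58 ended without the pairing and without pair 1 or 2 (adjusted p from 0.0552 to 0.195), and that of fbxa-83 without the pairing (adjusted p = 0.0781). That of skr-8 ended without pair 1 or 2 (adjusted p from 0.0947 to 0.127), and that of skr-14 without the pairing and without pair 2 (adjusted p from 0.0546 to 0.0993). The call of fbxc-58 also ended on log2(value + 64) (adjusted p = 0.054). The call of skr-8 also ended on log2(value + 64) and with quantile normalization (adjusted p from 0.0511 to 0.0588).

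Of 33 proteasome subunit genes 4 rose, by at most 0.43 ± 0.09 log2 units (pas-7), 0 (0 unadjusted) fell and 22 were higher at an unadjusted p under 0.05 in limma. Their median change of 0.29 was the highest of the 55 lists, which were written with earlier results of these data known. The count was 14 on log2(value + 16), 15 on log2(value + 64), 1 with quantile normalization and 0 without pair 1, without pair 2 or without the pairing. Of 26 autophagy genes 3 rose, atg-16.2, epg-6 and atg-16.1, by 1.44-fold, 1.37-fold and 1.33-fold. Of 41 translation factor genes 6 rose, with the subunit genes eif-3.E and eif-3.I of initiation factor 3 at 0.68 ± 0.11 and 0.61 ± 0.09 log2 units, although the other probe set of eif-3.E did not pass (0.42 log2 units). When pair 1, 2 or 3 was left out, there were 1, 0 and 5 that rose, and without the pairing 0 that rose. With quantile normalization 3 translation factor genes rose, and on log2(value + 64) 10. Of 32 aminoacyl-tRNA synthetase genes 1 rose (kars-1, the lysine enzyme, by 1.31-fold). None of the members of these 3 lists fell, at an adjusted or an unadjusted p under 0.05. Of 72 cytosolic ribosomal protein genes 0 passed (7 rose on log2(value + 64)), and 6 were higher at an unadjusted p under 0.05. The calls of pas-7, atg-16.1 and eif-3.E ended without the pairing and without pair 1 or 2 (adjusted p from 0.0633 to 0.358), and those of atg-16.2 and eif-3.I without the pairing and without pair 2 (adjusted p from 0.0713 to 0.248). Those of epg-6 and kars-1 ended without the pairing and without pair 1, 2 or 3 (adjusted p from 0.0528 to 0.267). The call of pas-7 also ended with quantile normalization (adjusted p = 0.0514).

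Markers of the germ line and of embryos, which adult hermaphrodites carry inside, were read in 3 lists. Of 71 sperm genes 0 (7 unadjusted) rose and 1 fell (nspd-7), with a median of -0.03. Of 41 genes of meiosis, germ granules and oocytes 2 rose, syp-1 of the synaptonemal complex and the translational regulator gld-3, by 1.38-fold and 1.35-fold. The other 2 probe sets of gld-3 did not pass (0.26 and 0.04 log2 units). The count for this list was 5 on log2(value + 16) and 7 on log2(value + 64). Of 40 early embryo genes 2 rose (5%) and 1 fell (2.5%), beside 4.47% and 6.54% of all genes. Counts without pair 1, 2 or 3 were 2, 1 and 9 that rose, against 0 that rose without the pairing. Here vet-2 rose by 1.7-fold, and sdz-6 gave 24.04, 29.0 and 30.04 in fasted worms, against 241, 232 and 179 in fed worms, a change of -2.97 ± 0.15 log2 units (adjusted p = 0.000206) and the only call of its list below 0. Of 37 genes of DNA replication and the cell cycle 1 rose, cdt-1, the licensing factor, by 1.39-fold. The count was 9 on log2(value + 16), 10 on log2(value + 64), and 4 with median centring and without pair 3. Of 36 histone genes 3 rose and 2 fell, the variant genes his-71 and htz-1 (H2A.Z) rising by 1.62-fold and 1.31-fold, although the other probe set of htz-1 did not pass (0.29 log2 units). Leaving out pair 1, 2 or 3 gave 2, 1 and 3 that rose, and ignoring the pairing 1 that rose. The medians of these last 4 lists lay between 0.13 and 0.18. The calls of syp-1, cdt-1 and htz-1 ended without the pairing and without pair 1 or 2 (adjusted p from 0.0846 to 0.472), and that of gld-3 without the pairing and without pair 1, 2 or 3 (adjusted p from 0.051 to 0.151). That of vet-2 ended without the pairing (adjusted p = 0.0886), and that of his-71 without the pairing and without pair 2 (adjusted p from 0.0518 to 0.104). The call of cdt-1 also ended on log2(value + 64) (adjusted p = 0.0745).

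The fasting effect of mek-1 worms was set against that of mlk-1 worms in a fit of all 10 arrays with a block for each pair. It rests on only 2 mlk-1 pairs, and the first fed mlk-1 array lay nearer to the fasted arrays than the second did for several of the genes named above. There adh-1 gave 4307 and 3862 in fasted mlk-1 worms, against 1860.3 and 124 in fed mlk-1 worms. The gene acs-2 gave 2469 and 3125 in fasted mlk-1 worms, against 793 and 125 in fed mlk-1 worms. Likewise vit-1 gave 415 and 483 in fasted mlk-1 worms, against 451 and 2631 in fed mlk-1 worms. The difference passed the threshold for 50 of 17118 genes (0.292%), with a higher effect in mek-1 for 7 (0.0409%) and a lower one for 43 (0.251%). Over probe sets 9 were higher (0.0399%) and 50 lower (0.222%); without the pairing these counts were 5 and 13. Leaving out mek-1 pair 1, 2 or 3 gave 8, 6 and 16 higher and 29, 23 and 61 lower, and leaving out mlk-1 pair 1 or 2 gave 6 and 5 higher and 15 and 15 lower. The labels do not say whether the strains were raised or hybridised together, so strain and batch cannot be told apart. Of the 43 and 7 genes, 9 fell in mek-1 and rose in mlk-1, 16 fell in mek-1 and did not pass in mlk-1, 8 fell in both, and 17 passed in mlk-1 and not in mek-1.

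For 5 genes of the apical intestinal cytoskeleton, of which ifd-2 and ifo-1 were picked with their values in view, the fasting effect was lower in mek-1 than in mlk-1. Only genes whose difference passed are grouped here, so they do not show how such genes behaved as a class. Larger differences were found for other genes, among them H02F09.3 (-2.63 ± 0.17 log2 units) and clec-60 (-2.58 ± 0.28 log2 units). The calls of all 5 cytoskeleton genes ended without the pairing and without either mlk-1 pair. For act-5 the pair changes were -2.03, -2.16 and -3.02 log2 units in mek-1, against 0.27 and -0.54 in mlk-1, a difference of -2.27 ± 0.33 log2 units (limma, adjusted p = 0.0424). For ifb-2 they were -1.91, -1.92 and -2.14 log2 units in mek-1, against -0.28 and -0.41 in mlk-1, a difference of -1.64 ± 0.15 log2 units (adjusted p = 0.00519). For ifc-2 they were -1.59, -1.49 and -1.52 log2 units in mek-1, against 0.01 and -0.42 in mlk-1. The 3 mek-1 pairs lay below both mlk-1 pairs for each of these genes. The intermediate filament gene ifd-2 and ifo-1, an organiser of the intestinal intermediate filaments, differed by -1.81 ± 0.19 and -1.09 ± 0.16 log2 units (adjusted p = 0.0114 and 0.0424). Both fell in mek-1, whereas ifd-2 rose in mlk-1 and ifo-1 was higher in the fasted array of both mlk-1 pairs. The intensities of ifd-2 were 96.1, 67.7 and 64.5 in fasted worms, against 198, 181 and 127 in fed worms of the mek-1 strain, and 207 and 175 in fasted mlk-1 worms, against 116 and 125 in fed mlk-1 worms. Those of act-5 were 671 and 862 in fasted mlk-1 worms, against 555.5 and 1254 in fed mlk-1 worms. The fed mlk-1 arrays of act-5 thus lay on both sides of the fasted ones. Fed levels differed between strains too. Every fed mek-1 array lay above both fed mlk-1 arrays for ifb-2, ifc-2 and ifd-2, while those of act-5 and ifo-1 overlapped. Fed ifb-2 gave 405, 330 and 468 in mek-1, against 218 and 293 in mlk-1. Fed ifc-2 gave 729, 602 and 654 in mek-1, against 391 and 545 in mlk-1. For all 5 genes every fasted mek-1 array lay below both fasted mlk-1 arrays.

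The lectin gene clec-86 and the saposin-like gene spp-23 had lower effects in mek-1. For clec-86 the pair changes were -2.87, -2.39 and -1.85 log2 units in mek-1, against -0.04 and 0.58 in mlk-1, and for spp-23 -4.35, -3.02 and -3.54 log2 units in mek-1, against -1.28 and -0.69 in mlk-1. The strains differed in fed worms for spp-23 (1144, 700 and 419 in mek-1, against 146 and 222 in mlk-1). They differed in fasted worms for clec-86 (65.2, 44.4 and 49.6 in mek-1, against 332 and 574 in mlk-1). The gene dod-19 fell in both strains, with pair changes of -4.104, -4.38 and -4.52 log2 units in mek-1, against -2.28 and -2.75 in mlk-1. In the other direction, drd-50 and fil-1, a lipase gene named for its induction by fasting, fell less in mek-1. For drd-50 the pair changes were -1.75, -2.29 and -2.59 log2 units in mek-1, against -3.96 and -3.99 in mlk-1, and for fil-1 -1.01, -0.96 and -0.28 log2 units in mek-1, against -2.73 and -2.31 in mlk-1. The strains differed most in fed worms. Fed drd-50 gave 161, 190 and 255 in mek-1, against 1126 and 2201 in mlk-1. Its fasted arrays gave 47.7, 38.9 and 42.4 in mek-1, against 72.4 and 138 in mlk-1. Fed fil-1 gave 104, 89.5 and 42.5 in mek-1, against 375 and 239 in mlk-1. Its fasted arrays gave 51.3, 45.9 and 34.9 in mek-1, against 56.5 and 48.0 in mlk-1. The decrease of fil-1 in mek-1 missed the threshold without the pairing, without pair 1 or 2 and on log2(value + 64) (adjusted p from 0.088 to 0.319).

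Most of the largest differences came from genes that passed the threshold in mlk-1 and not in mek-1. The gene clx-1 gave 65.6, 61.3 and 58.8 in fasted worms, against 69.8, 59.8 and 71.4 in fed worms of the mek-1 strain, and 3253 and 4743 in fasted mlk-1 worms, against 59.3 and 73.5 in fed mlk-1 worms. The gene smf-2, for a divalent metal transporter of the Nramp family, gave 32.8, 31.6 and 34.7 in fasted worms, against 31.996, 26.97 and 32.98 in fed worms of the mek-1 strain, and 334 and 320.4 in fasted mlk-1 worms, against 33.3 and 32.3 in fed mlk-1 worms. In mek-1 the fasted and fed arrays of clx-1 overlap, at levels near the array medians. Y57E12B.1, Y57E12B.4, spp-27 and T05E12.6 had lower effects in mek-1 (-4.37 ± 0.25, -3.303 ± 0.15, -3.17 ± 0.46 and -2.65 ± 0.27 log2 units). Of these, T05E12.6 did pass in mek-1, where it fell by 0.59 ± 0.12 log2 units (limma, adjusted p = 0.0286). That call ended without the pairing, without pair 1 or 3, on log2(value + 64) and in the fit of all 10 arrays. F55G11.2, F55G11.8, dod-22, F49F1.7 and F49F1.5 had higher effects in mek-1 (3.81 ± 0.31, 3.01 ± 0.20, 2.999 ± 0.38, 2.61 ± 0.27 and 1.53 ± 0.15 log2 units). None of the genes with higher effects named here passed in mek-1, and for each both fed mlk-1 arrays lay above every fed mek-1 array. The intensities of dod-22 were 18.4, 18.9 and 17.1 in fasted worms, against 16.03, 20.7 and 18.6 in fed worms of the mek-1 strain. In mlk-1 they were 30.8 and 26.8 in fasted worms, against 146 and 369 in fed worms. On mek-1 arrays dod-22 and F55G11.8 lay near the lowest value of 16, where a decrease could hardly show. For F55G11.2 the intensities were 42.2, 31.4 and 43.2 in fasted worms, against 31.6, 28.1 and 50.8 in fed worms of the mek-1 strain, and 32.6 and 37.01 in fasted mlk-1 worms, against 289.9 and 695 in fed mlk-1 worms. For each of these genes the larger mean change was in the mlk-1 pairs.

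The named differences leaned on the pairing and on both mlk-1 pairs. H02F09.3 and clec-60 were not followed over the other fits. Of the 22 genes followed that differed between strains, mek-1 itself among them, 9 passed without the pairing. Without mek-1 pair 1, 2 or 3, 17, 13 and 19 passed. Without mlk-1 pair 1 or 2 the numbers were 9 and 7, and the lone mlk-1 pair is then assumed to vary like the mek-1 pairs. The calls of clec-86, spp-23, dod-19, drd-50 and fil-1 ended without the pairing and without either mlk-1 pair. Those of clx-1, smf-2, Y57E12B.1, Y57E12B.4, F55G11.2 and F55G11.8 passed in all these fits, and no difference changed sign in any of them.

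**Figure D5:**
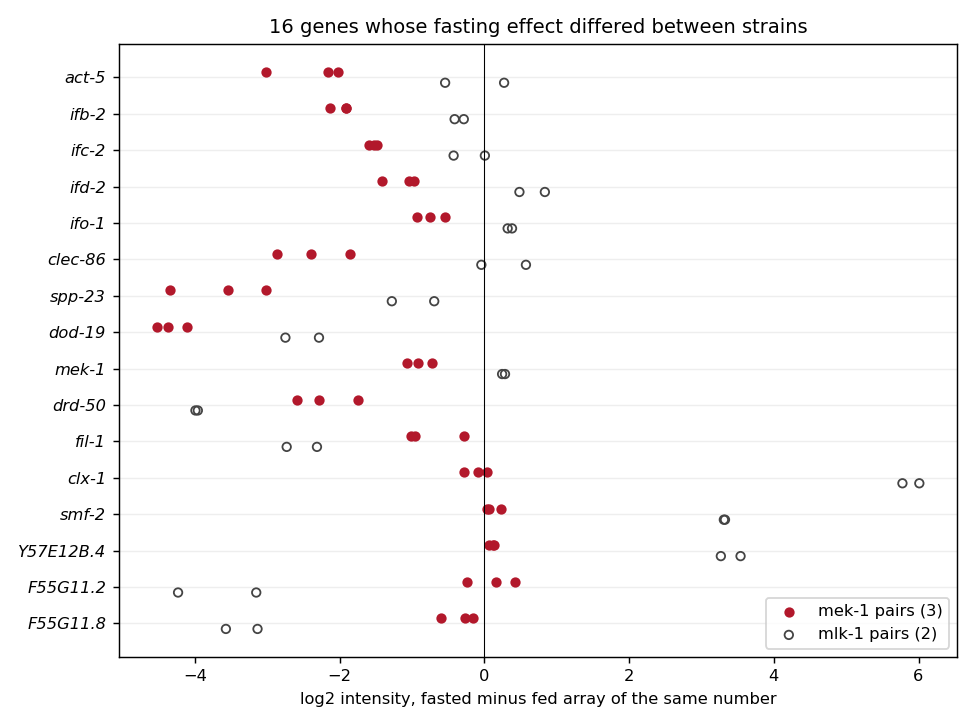
Change in log2 intensity, fasted minus fed array of the same number, for 16 genes whose fasting effect differed between strains, in the 3 mek-1 pairs (filled red) and the 2 mlk-1 pairs (open). The mek-1 points of act-5, ifb-2, ifc-2, ifd-2 and ifo-1 all lie below 0 and below the mlk-1 points, whereas clx-1, smf-2, F55G11.2 and F55G11.8 lie near 0 in the mek-1 pairs and far from it in the mlk-1 pairs.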

How the data were processed

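Per the labels, RNA from whole worms was labelled by 3' in vitro transcription and hybridised to Affymetrix arrays. The deposited values are linear intensity, 1 per probe set and array, as the authors summarised them; the summary, background and normalization methods are not given in the sources used here. Genes were named from the platform annotation, in which 20766 of the 22548 probe sets tested have 1 symbol, 887 several and 895 none, and 77 control probe sets were left out. Each gene was read on its probe set with the highest mean log2 value among those with 1 symbol (17118 genes, 2981 of them with more than 1 probe set). Probe sets of the types _s_at and _x_at, which may read several transcripts, held 83 of the 216 genes followed over the alternative fits.

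Values were taken as log2 and fitted with limma 3.58.1 (R 4.3.3, Python 3.11.15), with the replicate number as a block and constant-prior eBayes (residual degrees of freedom 2, prior 4.23). P-values were two-sided and adjusted by Benjamini-Hochberg over all 22548 probe sets, with a threshold of 0.05. The strain contrast used all 10 arrays and 5 pairs. The rule that chose the arrays also pairs them by replicate number. The deviations of each same-numbered pair correlated at 0.407 or more. The fits were tested on simulated data. Every column had a sample (0 without).

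Members and lists were chosen with earlier results of these data known. Named were up to 12 genes each way by change among calls whose groups do not overlap, up to 4 each way per list, the KGB-1 cascade, a set always shown, and up to 8 each way for the strain difference; ifd-2 and ifo-1 lie outside this rule. Alternatives changed the pairing, the arrays, the scale, the normalization, the filter on dim or shared probe sets, the variance prior, the size threshold and the pairs entered. No promoter or protein sequence is printed, and promoter motifs were not analysed here.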

Additional observations from a re-analysis of the deposited data

Results flagged for a closer look

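Of the 216 genes followed over the alternative fits, 22 passed limma's test of the difference between the mek-1 and mlk-1 fasting effects. The test used log2 values with pairs as a block. H02F09.3, clec-60, asm-3 and pho-8, named in other passages but not followed, also passed. Each value below is the mek-1 effect minus the mlk-1 effect in log2 units, from 3 mek-1 pairs and 2 mlk-1 pairs.

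For the intestinal cytoskeleton genes named above the effect was lower in mek-1, and only genes that passed are named. The differences were -2.27 ± 0.33 log2 units (act-5), -1.64 ± 0.15 log2 units (ifb-2), -1.32 ± 0.17 log2 units (ifc-2), -1.81 ± 0.19 log2 units (ifd-2) and -1.09 ± 0.16 log2 units (ifo-1). In mlk-1, ifd-2 rose and ifo-1 was higher in the fasted array of both pairs. For ifb-2, ifc-2 and ifd-2 every fed mek-1 array lay above both fed mlk-1 arrays. The transcript of mek-1 itself differed by -1.17 ± 0.16 log2 units, with pair changes of -0.92, -1.07 and -0.72 log2 units in mek-1, against 0.25 and 0.29 in mlk-1. Among secreted and immune genes with lower effects in mek-1, clec-86 differed by -2.64 ± 0.30 log2 units, spp-23 by -2.65 ± 0.35 log2 units, spp-27 by -3.17 ± 0.46 log2 units and dod-19 by -1.82 ± 0.19 log2 units. In these the adjusted p ran from 0.0123 (dod-19) to 0.0403 (spp-27). For spp-23 both fed mlk-1 arrays lay below every fed mek-1 array.

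The widest differences were -6.01 ± 0.16 log2 units for clx-1 (adjusted p = 3.41e-06), -4.37 ± 0.25 log2 units for Y57E12B.1, -3.303 ± 0.15 log2 units for Y57E12B.4 and -3.21 ± 0.14 log2 units for smf-2, each with an increase in mlk-1 and no call in mek-1. T05E12.6, of which a second probe set in mek-1 changed by -0.28 log2 units and did not pass, differed by -2.65 ± 0.27 log2 units, with pair changes of -0.79, -0.31 and -0.65 log2 units in mek-1, against 1.603 and 2.53 in mlk-1.

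Higher effects in mek-1 were found for F55G11.2 (3.81 ± 0.31 log2 units), F55G11.8 (3.01 ± 0.20 log2 units), dod-22 (2.999 ± 0.38 log2 units), F49F1.7 (2.61 ± 0.27 log2 units), fil-1 (1.77 ± 0.25 log2 units), drd-50 (1.77 ± 0.23 log2 units) and F49F1.5 (1.53 ± 0.15 log2 units). All of these fell with fasting in mlk-1, and fil-1 and drd-50 also fell in mek-1. The others did not pass in mek-1, where dod-22 and F55G11.8 lay near the lowest value of 16. For all of these genes both fed mlk-1 arrays lay above every fed mek-1 array. The labels do not tell strain and hybridisation batch apart.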

How the results depend on the processing

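Across probe sets, 1004 rose and 1400 fell. Without the pairing (no block) 148 and 578 did, with at least 2-fold changes 86 and 615, and without _s_at and _x_at probe sets, where fewer were tested, 576 and 855. Leaving out 1 pair gave 180 to 1168 and 890 to 1754. A trended and robust variance gave 1762 increases and raised their share among calls to 54.7%, against 41.8%, as log2(value + 64) raised it to 56.96%; the cause was not tested. The strain difference held 9 higher and 50 lower probe sets, 5 and 13 without the block, and 5 to 16 and 15 to 61 without 1 pair. Of its 22 genes followed over these fits, 17 passed on log2(value + 16).

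Of 180 genes followed that passed, 87 did so under all alternatives other than the 2-fold minimum, 63 missed in 1 to 3 and 30 in more. The call ended for 75 without the block, 45, 61 and 16 without pair 1, 2 or 3, 23 on log2(value + 64), 13 with the trended variance and 8 with quantile normalization. None of these 180 changed direction.

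Among 36 genes followed that missed the threshold, log2 changes crossed 0 with quantile normalization for fos-1 (0.0104) and with median centring for dod-22 (0.00933). Over the 3 fits without a pair, changes ran from -0.106 to 0.106 (fos-1), -0.127 to 0.0396 (dod-22), -0.199 to 0.0208 (kgb-1), -0.0190 to 0.161 (mig-2), -0.413 to 0.647 (fat-5), -0.197 to 0.0381 (sod-3), -0.0282 to 0.179 (pmk-1), -0.187 to 0.483 (pck-1), -0.0375 to 0.290 (F55G11.2) and -0.0690 to 0.148 (Y57E12B.1). The median change of all probe sets ran from 0.0233 to 0.0850 over all settings. Precision is limited by 3 arrays a group and, for dim probe sets, by signals near the lowest value of 16.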

Other observations

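Gene families outside the lists, chosen after their values were seen and so given without a test, included several of the gut. Among 12 galectin genes, whose proteins bind sugars with galactose, all fasted arrays lay below all fed arrays for 5, a pattern that 9.34% of all genes show. The gene lec-6 gave 465, 354 and 179 in fasted worms, against 3698, 3702 and 2578 in fed worms. The gene lec-9 gave 268, 265 and 171 in fasted worms, against 2270.1, 1965 and 2481 in fed worms. The exception lec-2 gave 4331, 3303 and 4727 in fasted worms, against 1956, 1463 and 1979 in fed worms.

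Of 12 nspg peptide genes, all fasted arrays lay below all fed arrays for 9, beside 9.34% of all genes. The median change over the family was -2.13 log2 units. This family and those below were also picked with their values in view, so their counts are not independent evidence. The gene nspg-13 gave 486, 330.5 and 169 in fasted worms, against 3532, 3201 and 2947 in fed worms. Of 5 genes for lysosomal sphingomyelinases and ceramidases, 4 were lower on every fasted array. The sphingomyelinase gene asm-3 gave 23.2, 37.9 and 22.4 in fasted worms, against 70.1, 112.6 and 63.1 in fed worms, and asm-1 overlapped between groups. The acid phosphatase gene pho-8 gave 37.7, 37.6 and 37.6 in fasted worms, against 231, 216 and 199 in fed worms, and 5 of the 11 pho genes were lower on every fasted array.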
